A study of Mus musculus with 2 samples.

Results

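The genes described here are 10 interferon-inducible GTPases, namely 7 guanylate-binding proteins (Gbp2, Gbp3, Gbp4, Gbp5, Gbp6, Gbp7 and Gbp9) and 3 immunity-related GTPases (Iigp1, Igtp and Irgm1). They were taken by symbol from the 32286 features of the deposited matrices, and all 10 were present. Single-cell RNA was measured in lungs of female BALB/c mice aged 9 to 10 weeks. For 3 weeks, mice were injected intravenously with tumor conditioned media (TCM) or, as controls, with control media (CM), TCM being medium in which 4T1 mouse mammary tumors had been kept. Each treatment was represented by 1 library, and the number of mice pooled into it was not stated. There was therefore no replicate check of any difference between the treatments, and no test was possible.

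Guanylate-binding proteins and immunity-related GTPases are large GTPases that cells make in response to interferons, above all interferon gamma. They assemble on the vacuoles and membranes of intracellular bacteria and parasites, help to break them open, and bring in autophagy proteins and inflammatory caspases. Irgm1 and Igtp belong to the regulatory branch of the immunity-related GTPases that keeps effectors such as Iigp1 off the membranes of the cell itself.

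The files held 31944151 unique molecular identifiers (UMIs) in CM and 36648719 in TCM. Droplets with at least 500 UMIs, at least 200 genes and at most 10% mitochondrial UMIs numbered 7988 in CM and 7707 in TCM, with medians of 2085 and 2346 UMIs. The libraries shared 93 of these barcodes, against 83.5 for independent draws. Droplets were placed in 15 classes by counting detected markers, with at least 3 markers of 1 class and a lead of 2 over the next, and the classes are therefore named with "-like". Endothelial-like cells numbered 1928 in CM and 1843 in TCM, of which 265 and 198 lay just inside the gate, while 259 and 204 droplets lay just outside it. They summed to 1578 UMIs of the 10 gate markers per 100000 UMIs in CM and 1727 in TCM, against 143 and 137 in the remaining droplets. A list of 8 endothelial genes that the gate did not use gave 723 and 763 in these cells and 73.1 and 65.7 elsewhere. In all, 12 classes had at least 50 cells in both libraries and were compared. Levels are given as UMIs per 100000 UMIs of the class in the library. Intervals are exact 95% intervals (Poisson for levels, binomial for shares and for ratios), and they cover counting error only.

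Gbp5, Gbp7, Gbp3 and Gbp2 lay side by side on the plus strand of chromosome 3 in GRCm38, from 142493978 at the start of Gbp5 to 142638008 at the end of Gbp2. Gbp9 (105077630 to 105139539), Gbp4 (105115767 to 105139586) and Gbp6 (105270702 to 105293698) lay on the minus strand of chromosome 5. Igtp (58199556 to 58207591) and Irgm1 (48861968 to 48871683) lay on chromosome 11, and Iigp1 lay on a further chromosome. All 10 were annotated as protein coding. Gbp4 and Gbp9 overlapped on the same strand and shared 60 exonic bases, and Igtp shared 162 with Irgm2. Of the stretches of 60 bases in the coding transcripts of Gbp6, 60.6% also occurred in another gene, mainly Gbp10. That share was 10.0% for Igtp, 6.63% for Gbp4, 5.95% for Gbp9 and at most 3.02% for the other 6. Over the first 500 bases, nearest the end read by the 5-prime kit, it was 28.6% for Gbp6 and 22.6% for Igtp. There it was 15.7% for Gbp9, 14.9% for Gbp4 and at most 4.84% for the other 6. Counts of Gbp6, and to a lesser degree of Igtp, Gbp9 and Gbp4, are therefore uncertain between genes that share these bases.

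Promoter sequences are shown for members on which the results below turn, because interferons act through short elements close to the start site. RefSeq promoter windows of GRCm38.p6 (250 bases before the start and 50 after it) matched 6 of the 10 members, in 7 windows. Gbp4, Gbp6 and Gbp9 were not matched, and windows on the chromosome of Iigp1 were not used for the members. The interferon-stimulated response element was searched on both strands as GAAA, any 2 bases and GAAA again (TTTC, any 2 bases and TTTC on the other strand). The gamma-activated site was searched as TTCNNNGAA, which reads the same on both strands. The runs below start 180 bases before the RefSeq start and end 10 bases past the last motif, with both motifs in capitals. They cover chr3:142620483-142620623 for Gbp2, chr3:142496754-142496900 for Gbp5, chr3:142530156-142530302 for Gbp7 and chr11:58199376-58199541 for Igtp, all on the plus strand.
Gbp2: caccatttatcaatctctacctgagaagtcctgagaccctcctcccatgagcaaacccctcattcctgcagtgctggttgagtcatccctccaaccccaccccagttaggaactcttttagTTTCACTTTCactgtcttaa
Gbp5: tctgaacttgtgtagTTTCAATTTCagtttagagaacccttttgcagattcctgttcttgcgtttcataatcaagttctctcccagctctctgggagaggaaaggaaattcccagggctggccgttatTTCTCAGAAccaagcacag
Gbp7: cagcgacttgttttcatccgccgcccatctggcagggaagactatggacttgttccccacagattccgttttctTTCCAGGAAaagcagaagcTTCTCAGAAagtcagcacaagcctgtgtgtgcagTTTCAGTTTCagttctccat
Igtp: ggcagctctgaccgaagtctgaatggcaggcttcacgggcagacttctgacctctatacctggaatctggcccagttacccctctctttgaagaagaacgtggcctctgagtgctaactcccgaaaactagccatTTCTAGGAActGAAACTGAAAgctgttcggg
All 6 matched members held the response element in a window, whereas 3.44% of the 32851 promoter windows in the table did. It began at position -59 in Gbp2, -165 in Gbp5, -53 in Gbp7 and -34 in Igtp, counted from the RefSeq start site. Gbp3 and Irgm1 each held a pair that overlapped, beginning at -45 and -39 in Gbp3 and at -30 and -24 in Irgm1. The gamma-activated site was found in Gbp5, Gbp7 and Igtp, and in 8.30% of all windows. In Gbp5 a further copy at -245 lay outside the printed run. In the GENCODE annotation used for the coordinates above, the Gbp2 element and the Irgm1 pair lay within exons of those genes. The Gbp5 run lay downstream of the GENCODE start of that gene (142493978). Not all of these elements therefore lie before the GENCODE starts. These matches describe letters and not bound sites.

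Endothelial-like cells held the family at its highest summed level of the 12 classes in both libraries. The 10 members summed to 88.7 UMIs per 100000 (86.4 to 91.1, from 5580 UMIs) in CM and to 85.2 (83.1 to 87.4, from 6192 UMIs) in TCM. T-like cells followed in CM with 40.3 (37.4 to 43.4) and NK-like cells with 34.9 (29.9 to 40.5), and their intervals overlapped. In TCM the second class was neutrophil-like cells at 56.2 (53.4 to 59.2), before T-like cells at 47.0 (43.1 to 51.0) and NK-like cells at 35.1 (28.2 to 43.1). Alveolar type II-like cells were lowest, with 5.18 (4.10 to 6.47) in CM and 5.54 (4.54 to 6.70) in TCM. Next from below were alveolar macrophage-like cells at 8.78 in CM, and in TCM alveolar type I-like cells at 8.54 and alveolar macrophage-like cells at 8.79, whose intervals overlapped. The endothelial sum was 17.1-fold (13.7 to 21.7) that of alveolar type II-like cells in CM and 15.4-fold (12.7 to 18.8) in TCM. RNA outside cells, read from droplets of at most 50 UMIs, held the members at 38.2 per 100000 in CM and 38.7 in TCM. It amounted to an estimated 118 UMIs per cell in CM and 245 in TCM, and hence to 0.0450 and 0.0949 member UMIs per cell.

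**Figure D1:**
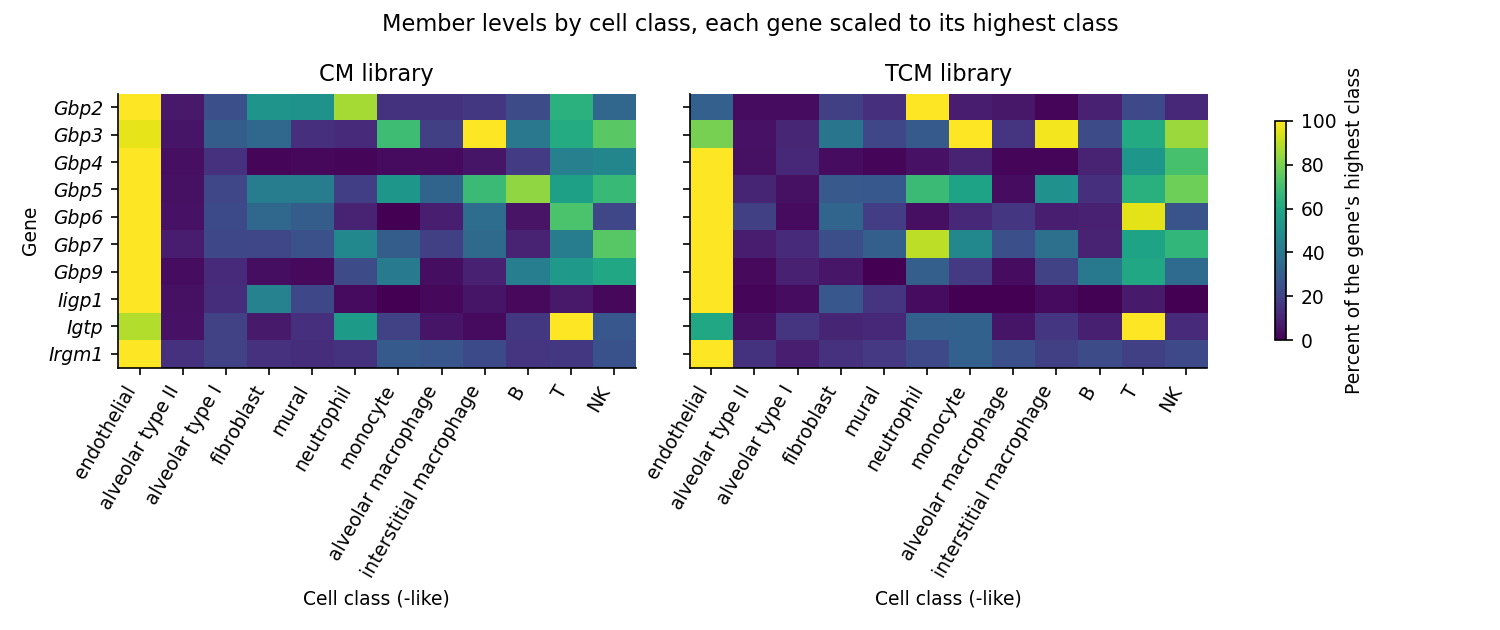
Level of each member (rows) in each of the 12 cell classes (columns), with CM on the left and TCM on the right, as a percentage of that gene's highest class in the same library; each cell of the map is 1 library without replicates. Gbp4, Gbp5, Gbp6, Gbp7, Gbp9, Iigp1 and Irgm1 are highest in endothelial-like cells in both libraries. Igtp is highest in T-like cells, and Gbp2 moves from endothelial-like cells in CM to neutrophil-like cells in TCM.

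The members did not share one distribution over classes. Iigp1, an effector that coats pathogen vacuoles, stood at 18.0 UMIs per 100000 in endothelial-like cells in CM and 18.2 in TCM. Its next highest class was fibroblast-like cells at 7.97 and 4.98, and T-like cells held 1.23 and 1.35. Endothelial-like cells thus exceeded T-like cells in Iigp1 by 14.6-fold (9.57 to 23.3) in CM and 13.5-fold (8.29 to 23.7) in TCM. Igtp, a regulatory GTPase, had the opposite order, with 7.20 and 5.66 in endothelial-like and 8.12 and 9.53 in T-like cells. The interval of that ratio included 1 in CM (0.887-fold, 0.734 to 1.08) and lay below 1 in TCM (0.594-fold, 0.481 to 0.738). Irgm1, also regulatory, was 6.23-fold and 5.27-fold higher in endothelial-like than in T-like cells.

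Among the guanylate-binding proteins, Gbp4 and Gbp9 set endothelial-like cells furthest apart from stroma. Gbp4 stood at 17.8 per 100000 in endothelial-like cells in CM and 17.1 in TCM, with 0.327 and 0.592 in fibroblast-like cells. Those ratios were 54.3-fold (30.2 to 109) and 28.8-fold (17.9 to 49.6), resting on 11 and 17 UMIs in the fibroblast-like cells. Gbp9 stood at 8.30 and 7.81 in endothelial-like cells, which was 27.9-fold (15.05 to 58.5) and 16.0-fold (9.46 to 29.5) its level in fibroblast-like cells. Gbp2, which targets vacuoles and bacteria and helps caspase activation, was spread more widely. It exceeded its fibroblast-like level by 1.93-fold (1.64 to 2.28) in CM and 1.62-fold (1.38 to 1.91) in TCM. Gbp7, reported to act in oxidative defence, lay between, at 4.68-fold (3.76 to 5.90) and 4.17-fold (3.34 to 5.27). The intervals of Gbp4 and Gbp9 did not reach those of Gbp2 or Gbp7 in either library. Gbp3 was highest in interstitial macrophage-like cells in CM at 4.55 (18 UMIs), beside 4.37 in endothelial-like cells, and in TCM in monocyte-like cells at 4.12 (25 UMIs). Gbp5, which supports inflammasome assembly, was low in every class. In CM its highest levels were 1.48 in endothelial-like cells and 1.23 in B-like cells, and in TCM 1.996 in endothelial-like and 1.56 in NK-like cells. Gbp6 was highest in endothelial-like cells at 2.81 and 2.99, and T-like cells held 2.02 and 2.87.

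Within the endothelium the family followed the capillary type. General capillary-like cells (1301 in CM, 1362 in TCM) are the common capillary cells marked by genes such as Gpihbp1 and Aplnr. Aerocyte-like cells (201 and 206) are the thin gas-exchange capillary cells marked by Car4 and Ednrb. The members summed to 98.5 per 100000 (95.6 to 101) in general capillary-like and 47.8 (42.8 to 53.2) in aerocyte-like cells in CM. In TCM the sums were 93.8 (91.3 to 96.5) and 49.0 (44.3 to 54.1). The ratio was 2.06-fold (1.84 to 2.31) in CM and 1.92-fold (1.73 to 2.13) in TCM, so the same order was seen in both libraries. Endothelial-like cells of no subclass summed to 73.4 in CM and 64.0 in TCM. With clusters in place of gates, the cluster led by Apln and Ednrb held 68.0 in CM and 55.8 in TCM. The largest endothelial cluster held 108.5 and 107.7, so the order stayed, but the size of the difference depended on how cells were grouped. All 10 members were higher in general capillary-like cells in each library, where 56.8% of 10662 genes were in CM and 53.6% of 10896 in TCM.

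The capillary difference was not even across members. Iigp1 was 3.27-fold (2.43 to 4.50) higher in general capillary-like cells in CM and 3.67-fold (2.74 to 5.03) in TCM, and Gbp4 was 2.78-fold (2.09 to 3.77) and 2.26-fold (1.76 to 2.94) higher. Igtp differed by 1.27-fold (0.920 to 1.79) and 1.17-fold (0.840 to 1.67), and Gbp9 by 1.31-fold (0.968 to 1.79) and 1.34-fold (0.996 to 1.84), with all these intervals including 1. Iigp1 thus separated the capillary types more than Igtp and Gbp9 did, with intervals that did not overlap in either library. Iigp1 UMIs were unevenly held, since 10 cells carried 89.1% of the 46 aerocyte-like UMIs in CM and 76.6% of the 47 in TCM. Large vessel-like cells (57 and 41) summed to 75.9 (63.8 to 89.6) in CM and 98.0 (83.9 to 114) in TCM. There, 10 cells held 59.0% and 67.8% of the member UMIs, so these levels rest on few cells.

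**Figure D2:**
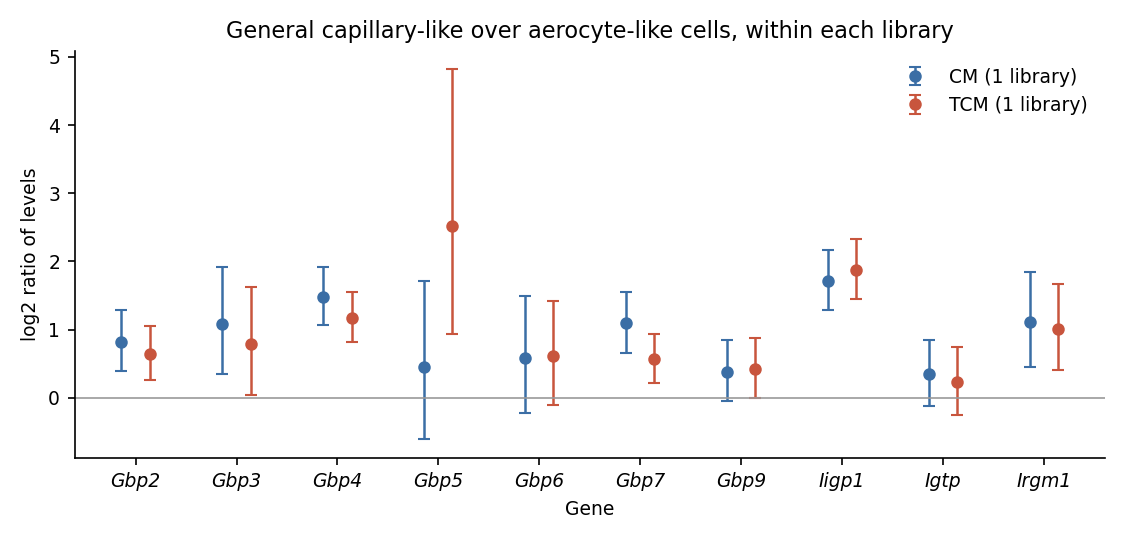
Ratio of each member's level in general capillary-like over aerocyte-like cells on a log2 scale, within the CM library (blue) and within the TCM library (red); points are ratios of summed UMIs and bars exact 95% counting intervals. Every point lies above 0, Iigp1 is at 3.27-fold and 3.67-fold, and the wide Gbp5 interval in TCM rests on 3 aerocyte-like UMIs.

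The comparison of treatments asked whether the endothelial level of the family differed after tumor conditioned media. No member was at least 1.5-fold higher or lower in TCM. Over the 12339 genes with at least 20 UMIs in these cells, 4.99% were at least 1.5-fold higher and 5.73% at least 1.5-fold lower. On the log2 scale the median ratio, TCM against CM, was -0.05 for the members and 0.0037 for all genes tested, with 3 members higher and 7 lower. The summed members gave a log2 ratio of -0.06 (-0.11 to -0.01). This small difference took the other sign when every cell was given equal weight (0.08) or was thinned to 1000 UMIs (0.07), so no direction is read from it.

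**Figure D3:**
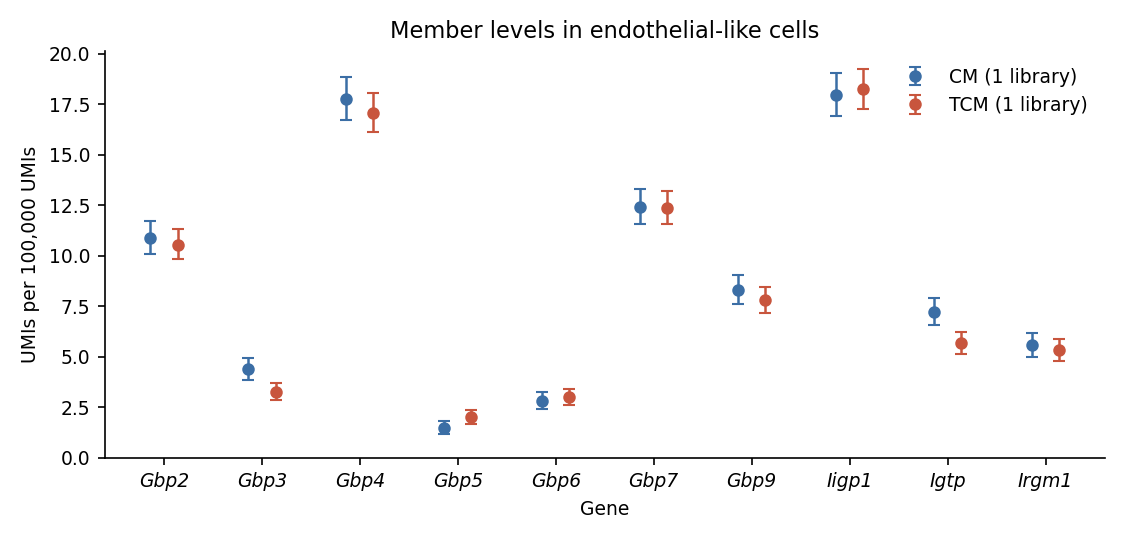
Level of each member in endothelial-like cells in UMIs per 100000 UMIs, with CM in blue and TCM in red; points are 1 library each and bars exact 95% Poisson intervals. The pairs of points lie close together, and only the intervals of Gbp3 (4.37 and 3.28) and Igtp (7.20 and 5.66) are separate.

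Of the effectors, Iigp1 was counted 1129 and 1324 times, for a log2 ratio of 0.02 (-0.09 to 0.14). Gbp4 stood at 17.8 and 17.1 per 100000, a log2 ratio of -0.06 (-0.17 to 0.06). Gbp7 stood at 12.4 and 12.3, a log2 ratio of -0.01 (-0.15 to 0.13). These intervals exclude changes of 1.5-fold within counting error. Under the 11 alternatives Iigp1 lay between -0.11 and 0.37 and left its counting interval in 3 of them. Gbp4 lay between -0.19 and -0.02 and Gbp7 between -0.14 and 0.16. No alternative took any of these members past 1.5-fold. Gbp2 at 10.9 and 10.5, Gbp9 at 8.30 and 7.81, Gbp6 at 2.81 and 2.99 and Irgm1 at 5.58 and 5.33 also had intervals that included 0.

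The interval of 1 member lay above 0 and those of 2 members below 0. Among all genes tested, 10.8% had an interval above 0 and 9.11% below 0. Gbp3 was lower in TCM, with 275 UMIs (4.37 per 100000) in CM and 238 (3.28) in TCM and a log2 ratio of -0.42 (-0.67 to -0.16). Igtp was lower as well, with 453 UMIs (7.20) and 411 (5.66) and a log2 ratio of -0.35 (-0.54 to -0.15). Gbp5 was higher, with 93 UMIs (1.48) and 145 (1.996) and a log2 ratio of 0.43 (0.05 to 0.82). The Gbp3 ratio lay between -0.55 and -0.38 under all 11 alternatives. Igtp took the other sign (0.25) when cells were thinned to 1000 UMIs. Gbp5 lay between 0.30 and 0.95 and passed 1.5-fold under thinning (0.74) and under equal weights per cell (0.95). General capillary-like cells held 80.3% of the endothelial member UMIs in CM and 81.5% in TCM, so their ratios, at -0.48 for Gbp3, -0.37 for Igtp and 0.48 for Gbp5, largely repeat the same counts. In aerocyte-like cells Gbp5 had 8 UMIs in CM and 3 in TCM. Endothelial-like cells of TCM held more UMIs per cell, with a median of 2943 UMIs against 2219.

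Members were scattered thinly over endothelial-like cells. Cells were thinned to 1000 UMIs each, and 449 in CM and 306 in TCM were too shallow for this. Of the remainder, 49.4% (46.8 to 52.0) of 1479 CM cells and 49.2% (46.7 to 51.7) of 1537 TCM cells held at least 1 member UMI. The unthinned shares were 69.8% and 75.1%. In alveolar type II-like cells, whose median depths were 2324.5 and 5319 UMIs, the thinned shares were 8.09% (5.14 to 12.0) and 4.13% (2.21 to 6.95), and the unthinned ones 16.7% and 22.2%. The endothelial shares were therefore well above that background. At least 3 member UMIs were held by 7.98% (6.65 to 9.48) of thinned endothelial-like cells in CM and 9.69% (8.26 to 11.3) in TCM, intervals that overlap, and by 32.1% and 40.2% unthinned. The 5 CM and 3 TCM cells with 10 or more member UMIs reached 19 and 17 UMIs, spread over up to 9 and 8 different members.

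Cell by cell the members went together only weakly. The variance of member UMIs per thinned cell was 2.27 times the mean in CM and 2.20 times in TCM. Of the 45 pairs of members, 43 in CM and 44 in TCM had a correlation above 0, with medians of 0.104 and 0.0687. These are descriptions over cells of 1 library each, at depths where most values are 0. Over the 3016 thinned cells of both libraries, Irf1, an interferon-induced transcription factor, had a correlation of 0.285 with the summed members, the antiviral gene Ifit1 0.257, and Irgm2, another immunity-related GTPase, 0.191. Outside the fixed lists the most alike were Adamts9 (0.211), Parp14 (0.208), Cebpd (0.200), Sbno2 (0.174) and Ifitm3 (0.170). Across 24 sums of class and library, the genes most alike to the summed members were Il4ra (Pearson r of 0.832), Clec2d (0.824), Ubald2 (0.817), Ubn1 (0.808) and Klf2 (0.804).

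Other genes of the pathway were read from lists in the same endothelial-like cells. Interferon gamma itself (Ifng) was counted 57 times over all CM droplets and 21 times over all TCM droplets, a log2 ratio of -1.50 (-2.29 to -0.75). Most UMIs were in NK-like cells, with 32 in CM (6.38 per 100000) and 10 in TCM (3.90), and in T-like cells, with 17 and 6. Within each of those classes the interval of the ratio included 0. NK-like cells made up 2.93% of CM and 1.74% of TCM droplets, and T-like cells 8.35% and 6.40%. The 7 receptors and kinases were near the all-gene median, with a median log2 ratio of 0.03. Jak2, the kinase of the gamma receptor, was the highest at 0.51 (0.22 to 0.80) and Ifnar1, a receptor chain for type I interferon, the next at 0.24 (0.02 to 0.46). Ifngr2, a chain of the gamma receptor, was at -0.26 (-0.44 to -0.08) and Tyk2 at -0.38 (-0.80 to 0.05).

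All 5 transcription factors of the list were lower in TCM, with a median of -0.17, beside 0.0037 over all genes tested. Irf8 was at -0.63 (-0.94 to -0.33), past 1.5-fold, whereas Stat2 at -0.06 and Irf1 at -0.04 (-0.11 to 0.03) had intervals that included 0. Of the 4 inhibitors, Socs3 was at 0.18 (0.10 to 0.26), Ptpn2 at -0.02, Socs1 at -0.14 and Usp18 at -0.25. The 8 other interferon-inducible GTPases among the features gave 7 ratios, all below 0 with a median of -0.28. Tgtp1, which has a near-identical neighbour in Tgtp2, was lowest at -0.85 (-1.51 to -0.20) and the only one past 1.5-fold. Gbp8 was at -0.54, Irgm2 at -0.18 and Gbp2b at -0.15, with intervals that included 0.

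Genes commonly used to read an interferon response were also mostly below 0, where the median of all genes tested was 0.0037. Of all genes tested, 5.73% were at least 1.5-fold lower. Of 13 gamma interferon targets 11 were lower, with a median of -0.17, and 2 were past 1.5-fold. These were the chemokines Cxcl9, with 29 UMIs in CM and 3 in TCM (-3.48, -5.84 to -1.79), and Cxcl10, with 174 and 101 (-0.99, -1.36 to -0.63). Tap1 at 0.20 and Nlrc5 at 0.31, both of antigen presentation, had intervals that included 0. All 8 type I interferon targets were lower with a median of -0.32, from Rsad2 at -0.51 (-1.26 to 0.22) and Ifit1 at -0.45 (-0.65 to -0.24) to Oasl2 at -0.23 and Isg15 at -0.08. None of the 8 was past 1.5-fold. Among 6 partners of the GTPases, the inflammatory caspase Casp4 was at 0.37 (0.03 to 0.71) and the autophagy protein Gabarapl2 at 0.08, and Gsdmd, which forms pores, was at -0.30 (-0.50 to -0.10) and Aim2 at -0.92 (-1.996 to 0.10).

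Other signals moved in the same cells. Of 10 stress and dissociation genes 8 were lower in TCM, with a median of -0.20, from the heat shock genes Hspa1a at -1.08 and Hspa1b at -0.75 to Edn1 at 0.27 and Ier3 at 0.30. Marker lists of lymphocytes were lower inside the endothelial-like cells. All 10 NK markers were detected and summed to 10.0 per 100000 in CM and 2.99 in TCM, the 10 T markers to 13.4 and 8.85 and the 10 B markers to 15.3 and 8.37. The 10 monocyte markers, all detected, were higher, summing to 170 and 250 (log2 ratio 0.56). The remaining droplets held less of this list, at 38.6 and 63.2, so it is not read as monocyte RNA. Of 5 neutrophil genes 4 were higher, with log2 ratios of 3.91 for Wfdc17, 2.88 for Retnlg, 1.22 for S100a9 and -0.11 for Il1b, and their list of 5 summed to 32.2 and 75.4. The part of these signals in the ratios of the family and of its pathway was not tested.

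**Figure D4:**
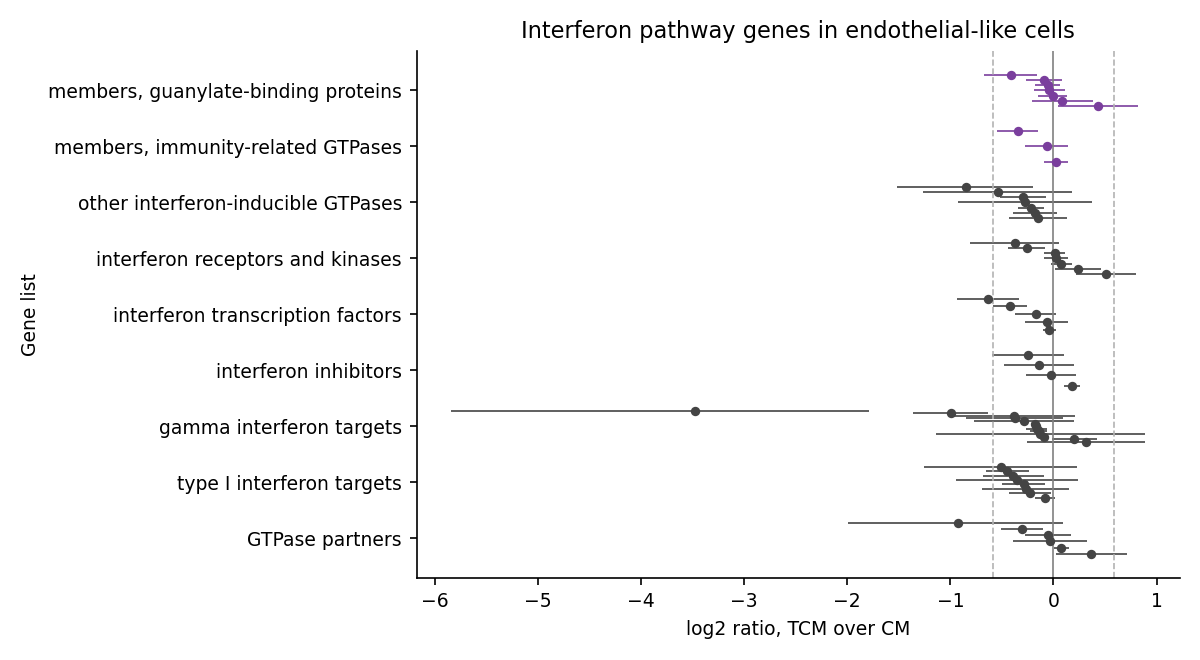
log2 ratio of TCM over CM in endothelial-like cells for each gene with at least 20 UMIs, grouped by list, with the members in purple and other genes of the pathway in grey; bars are exact 95% counting intervals and dashed lines mark 1.5-fold. The members lie between -0.42 and 0.43, and the 8 type I targets all lie below 0. Cxcl9 at -3.48, which lies far to the left, rests on few UMIs.

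In neutrophil-like cells the family was higher in TCM. The members summed to 24.3 UMIs per 100000 (19.5 to 29.9, from 88 UMIs) in the 245 CM cells and to 56.2 (53.4 to 59.2, from 1443 UMIs) in the 1456 TCM cells. The log2 ratio was 1.21 (0.90 to 1.54). Gbp2 accounted for most of it, with 34 UMIs in CM (9.38 per 100000, 6.49 to 13.1) and 887 in TCM (34.6, 32.3 to 36.9), and a log2 ratio of 1.88 (1.39 to 2.42). Gbp7 was also higher, with 21 UMIs (5.79) and 285 (11.1), giving a log2 ratio of 0.94 (0.30 to 1.65). The 3 immunity-related GTPases summed to 5.79 (3.59 to 8.85) and 4.72 (3.91 to 5.64), and Igtp was at -0.59 (-1.39 to 0.28). The difference in neutrophil-like cells was thus held mainly by Gbp2, and Gbp7 was the only other member with an interval above 0. The sum of the immunity-related GTPases rested on 21 UMIs in CM.

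Of the 8 members with a ratio there, 5 were at least 1.5-fold higher and 1 at least 1.5-fold lower. Besides Gbp2 and Gbp7, the higher ones were Gbp3 (2 UMIs in CM and 30 in TCM), Gbp4 (1 and 21) and Gbp5 (1 and 35). These 3 reached the minimum of 20 UMIs only through TCM and their intervals included 0, so the count is not read as support. Over the 6676 genes tested in this class 17.7% were at least 1.5-fold higher and 25.2% at least 1.5-fold lower, and their median was -0.14, so the class as a whole differed widely between the libraries. All 9 stress and dissociation genes with a ratio were lower in TCM, 4 of them at least 1.5-fold, with a median of -0.53 and sums of 1149 and 755 per 100000, and their part in the Gbp2 ratio was not tested. Thinned to 1000 UMIs, 7.83% (4.24 to 13.02) of 166 CM cells and 27.5% (24.9 to 30.2) of 1143 TCM cells held Gbp2, against 1.84% and 0.952% of alveolar type II-like cells. The unthinned shares were 9.80% and 37.0%, at median depths of 1236 and 1563.5 UMIs. In TCM the Gbp2 level of endothelial-like cells was 0.305-fold (0.277 to 0.336) that of neutrophil-like cells, whereas in CM the ratio was 1.16-fold (0.821 to 1.69).

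The make-up of the neutrophil-like class was not the same in the libraries. Its share of droplets was 3.07% (2.70 to 3.47) in CM and 18.9% (18.0 to 19.8) in TCM. Cells with at least 5 UMIs of Camp, Ltf and Ngp, genes of immature neutrophils, made up 4.49% and 0.549% of it. Without them the Gbp2 log2 ratio was 1.70. The cytokine gene Il1b was lower in TCM at -0.73 (-0.78 to -0.69) and Wfdc17 higher at 4.57 (4.23 to 4.92). The part of a different mixture of neutrophil states in the Gbp2 ratio was not tested, beyond the value without the immature cells. Other interferon genes of the class went both ways. Of 7 type I targets with a ratio 6 were lower, with Isg15 at -0.25 (-0.36 to -0.15), and of 9 gamma targets 6 were lower. Of 5 transcription factors 3 were higher, with Irf1 at 0.01 (-0.46 to 0.52), as were 3 of 4 inhibitors and 2 of 3 other interferon-inducible GTPases.

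**Figure D5:**
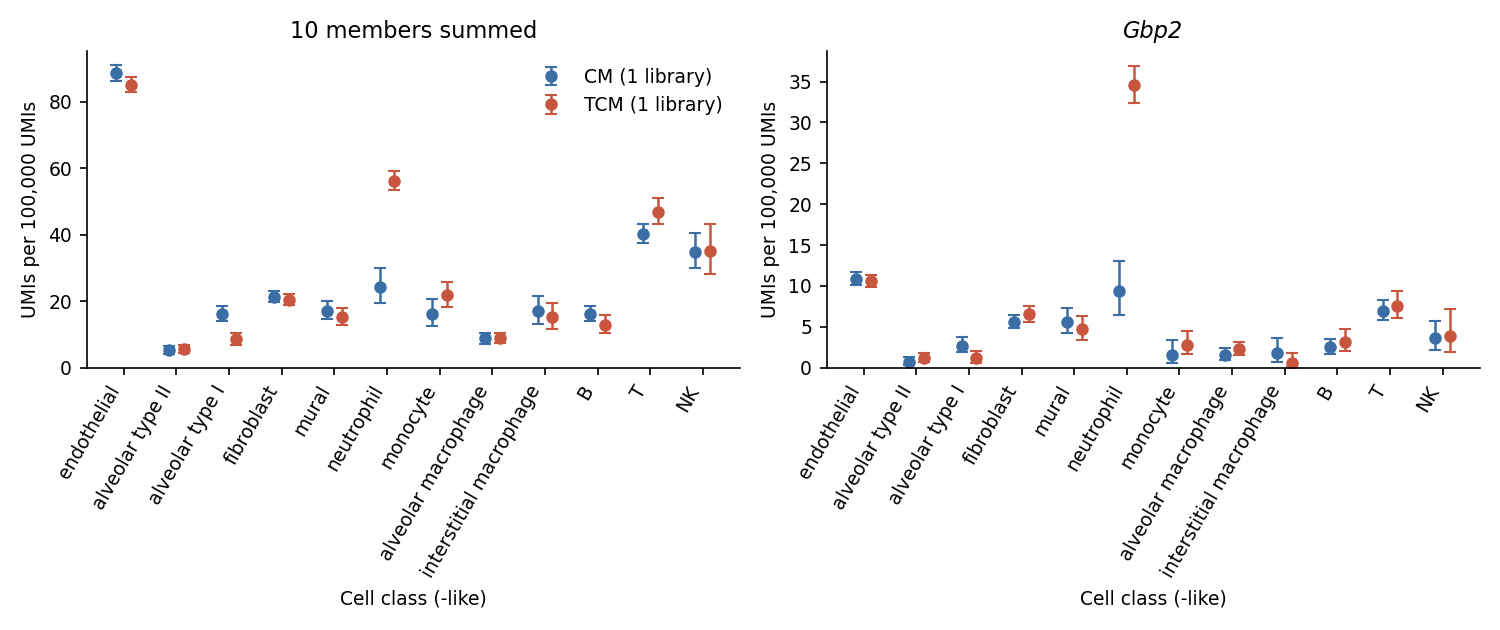
UMIs per 100000 UMIs of the 10 members summed (left) and of Gbp2 (right) in each of the 12 cell classes, with CM in blue and TCM in red; points are 1 library each and bars exact 95% Poisson intervals. The summed level is highest in endothelial-like cells at 88.7 and 85.2, and Gbp2 in neutrophil-like cells stands at 9.38 in CM and 34.6 in TCM.

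Alveolar type I-like cells, the flat cells of the gas-exchange surface, had lower member levels in TCM. The sums were 16.2 per 100000 (14.0 to 18.5, from 206 UMIs) in CM and 8.54 (6.91 to 10.4, from 95 UMIs) in TCM, and the log2 ratio -0.92 (-1.29 to -0.56). All 7 members with a ratio were lower and 4 of them at least 1.5-fold, where 8.66% of 9007 genes were. These 4 (Gbp2, Gbp3, Gbp7 and Iigp1) each had fewer than 20 UMIs in TCM and passed that minimum through CM, where they were higher. The Gbp7 interval (-1.74 to 0.08) included 0. The count is therefore not read as support. Iigp1 was counted 30 and 7 times (-1.90, -3.33 to -0.69) and Gbp2 34 and 13 times (-1.19, -2.24 to -0.23). Endothelial markers were also lower in this class, with all 10 summing to 185 per 100000 in CM and 134 in TCM, and their part in the ratio was not tested. With RNA outside cells subtracted the ratio was -1.21, with cells thinned to 1000 UMIs -2.12, and with classes taken from clusters -0.71.

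Fibroblast-like cells held a single member that differed clearly by summed UMIs. Iigp1 had 268 UMIs (7.97 per 100000) in CM and 143 (4.98) in TCM, which gave a log2 ratio of -0.68 (-0.98 to -0.38). With equal weight for every cell this became 0.03, and with cells thinned to 1000 UMIs -0.59. Of the 10 members 3 were at least 1.5-fold higher and 1 at least 1.5-fold lower, where 4.95% and 6.1% of 10962 genes were. The 3 higher ones, Gbp4, Gbp9 and Igtp, rested on 10 to 28 UMIs a library and their intervals included 0.

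In T-like cells the members summed to 40.3 in CM and 47.0 in TCM, giving a log2 ratio of 0.22 (0.06 to 0.38). Gbp7 was at 0.44 (0.0040 to 0.88), and the other 9 members had intervals that included 0. The summed ratios of alveolar type II-like, fibroblast-like, mural-like, monocyte-like, alveolar macrophage-like, interstitial macrophage-like, B-like and NK-like cells ran from -0.33 to 0.43, each with an interval that included 0. Over all filtered droplets Gbp2 was higher in TCM, at 0.59 (0.50 to 0.68), beside -0.04 (-0.19 to 0.11) within endothelial-like cells.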

How the data were processed

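RNA libraries of 1 CM and 1 TCM lung sample were prepared by the authors with a 5-prime droplet kit. The deposited matrices hold raw UMI counts, made by the authors with Cell Ranger (version 4 in the file header) on mm10 (GRCm38.p6), without normalization. Counts were filtered with the limits described for the study (at least 500 UMIs, at least 200 genes, at most 10% mitochondrial UMIs) and summed per class and library. Groups came from the treatment labels. Cells were thinned to 1000 UMIs with a fixed seed for shares and for correlations between cells. Doublets were kept, because the automatic Scrublet threshold (scanpy 1.11.5) marked 0.0250% and 0% of cells. Leaving out the top 6% by score was an alternative, as were other gates, clusters (leidenalg 0.10.2, resolution 1) and scalings. The ratio was checked on simulated counts.

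The members, the classes and the gene lists were chosen with earlier results of these data known. All 10 members were described. From each list the text names the genes with the 2 largest and 2 smallest ratios among those with at least 20 UMIs in endothelial-like cells, and the 5 genes outside the lists most correlated with the members. Genes named beyond this rule (Ifng, Irgm2 and Ifit1 among cells, and the neutrophil genes) were chosen after their values were seen. A gene that the rule would name is not reported here. Coordinates came from GENCODE vM21 (GRCm38), in which 32158 feature identifiers were found. No annotation of cells was used here.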

Additional observations from a re-analysis of the deposited data

Results flagged for a closer look

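The summed members ran opposite ways in 2 classes of cells, being higher in TCM in neutrophil-like cells (log2 ratio 1.21) and lower in alveolar type I-like cells (-0.92). Gbp2 did so as well, at 1.88 in neutrophil-like and -1.19 in alveolar type I-like cells. Each ratio compares 1 library with 1 library, and the difference between the classes was not tested.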

How the results depend on the processing

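No paired analysis was possible because each group held 1 library, and for the same reason no replicate could be left out. In endothelial-like cells the summed log2 ratio of -0.06 became 0.080 with the mean over cells, 0.067 with cells thinned to 1000 UMIs and -0.19 when scaled by the endothelial gate markers, which themselves were 0.13 higher in TCM. It stayed within its counting interval under the other 8 alternatives. The count of members past 1.5-fold, 0 as reported, became 1 with the mean over cells and 1 with thinning, where all genes past the fold made up 15.4% and 13.3% against 10.7%. It was 0 under the other 11. The difference in the share of cells with at least 3 member UMIs, 1.72 percentage points, became 8.10 without thinning. The median of the member ratios lay between -0.18 and 0.10 under its 11 alternatives.

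For single genes and other classes, 155 alternative values stayed within the counting interval and 17 moved out of it. Igtp in endothelial-like cells took the other sign with thinning (0.25), as did Iigp1 in fibroblast-like cells with the mean over cells (0.029). Gbp2 in neutrophil-like cells lay between 1.70 and 1.99 under 7 alternatives chosen after seeing the data. The general capillary over aerocyte log2 ratio became 1.41 in CM and 1.43 in TCM with thinning, from 1.04 and 0.94. In alveolar type II-like cells the summed ratio of 0.10 ran to -1.16 with thinning. The cause of these changes was not tested. Precision is limited by few member UMIs in alveolar type II-like, alveolar macrophage-like, monocyte-like and interstitial macrophage-like cells, which held at most 132 a library. Counts were also low in CM neutrophil-like cells, with 88. In TCM they were low in alveolar type I-like (95), B-like (94) and NK-like cells (90).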

Other observations

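In neutrophil-like cells 2 further genes of the family's pathway stood beside Gbp2, both named after their values were seen. Both had fewer than 20 UMIs in CM and passed that minimum through TCM, so they are not read as support. Of the 6 partners of the GTPases, Casp4 among them, 2 were higher and 4 lower there, with a median log2 ratio of -0.32. Casp4, the inflammatory caspase that guanylate-binding proteins help to activate, was counted 17 times in CM (4.69 UMIs per 100000) and 514 times in TCM (20.04), a log2 ratio of 2.10 (1.40 to 2.89). Gbp2b, the neighbour of Gbp2, was counted 11 times (3.03) and 211 times (8.22), a log2 ratio of 1.44 (0.57 to 2.46). The antiviral gene Rsad2 was lower in the same cells, with 33.6 and 13.1 UMIs per 100000 and a log2 ratio of -1.36 (-1.66 to -1.05).

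In large vessel-like cells Gbp2 was counted 12 times in 57 CM cells and 36 times in 41 TCM cells. The log2 ratio was 1.65 (0.68 to 2.73). The CM count lay below the minimum for a ratio, which was passed through TCM, so this ratio is not read as support. Of the 3143 genes tested in this class, 14.0% were at least 1.5-fold higher in TCM. Adamts9, the gene outside the fixed lists that was most alike to the members over endothelial-like cells, stood at 7.76 UMIs per 100000 in CM and 15.4 in TCM.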
